A study of Homo sapiens with 24 samples.

Results

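HEL cells were treated with the JAK inhibitor momelotinib or with DMSO, the solvent, and the question here was how the effect of the inhibitor at 48 h differed from its effect at 4 h. The comparison is the interaction of treatment and time, computed for each gene as the log2 fold change of momelotinib against DMSO at 48 h minus the same log2 fold change at 4 h. It compared 8 of the 24 libraries of the series. There were 2 for each of DMSO at 4 h, momelotinib at 4 h, DMSO at 48 h and momelotinib at 48 h. The spread was estimated from all 24 libraries in 1 fit, in which 16076 of 34213 genes had enough counts to be tested. The rest of the libraries were treated with ruxolitinib, fedratinib, pacritinib or itacitinib at 500 nM for the same times. HEL is an established human erythroleukaemia line with an activating JAK2 mutation, which the DMSO cells carry too, and momelotinib was given at 500 nM. A positive interaction means that a decrease at 4 h had become smaller or had turned into an increase by 48 h, or that an increase had grown. The line is a single source of cells, the labels do not say whether the 2 libraries of a group came from separate cultures, so each p-value reflects only how much these libraries varied, and that variation may be technical.

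In JAK-STAT signalling, a JAK kinase bound to a cytokine receptor phosphorylates STAT factors, which enter the nucleus and switch on target genes. Among the targets are the SOCS proteins and CISH, which feed back on the receptor and the kinase, the PIM kinases, and inhibitors of cell death of the BCL2 family. The same receptors also feed the RAS-ERK pathway, whose outputs include the DUSP phosphatases, the SPRED and SPRY inhibitors, EGR1 and the ETV factors. In cells with an activating JAK2 mutation both pathways run without cytokine. Momelotinib inhibits JAK1 and JAK2 and is also known to inhibit the receptor kinase ACVR1 of the BMP pathway, whose SMAD factors drive the ID genes.

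The 8 libraries held 33039413 to 45550784 counts each. Markers of the erythroid and megakaryocytic character of HEL cells were present in each of them, in CPM, the count of a gene scaled to the size of the library: GATA1 lay between 194 and 217 CPM and ITGA2B between 712 and 780 CPM. The summed level of 20 markers of other cell types was 215 to 227 CPM in all 4 groups, most of it from PECAM1 at 152 to 176 CPM, and INS was at 0 in every library. The share of mitochondrial ribosomal RNA differed between the groups. It was 0.0181% and 0.00716% with DMSO at 4 h, 0.0414% and 0.0323% with momelotinib at 4 h, 0.0586% and 0.0912% with DMSO at 48 h, and 0.0935% and 0.111% with momelotinib at 48 h. Copies of RN7SL, a small cytoplasmic RNA, took 2.42% and 2.52%, 3.98% and 3.25%, 3.05% and 3.36%, and 4.01% and 3.78% of counts in the same order. The part of these differences in the results below was not tested.

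The effect of momelotinib at 48 h differed from that at 4 h in 11 of 22 JAK-STAT targets and 6 of 21 ERK outputs. Each of these differences was toward a smaller decrease or an increase. Both lists were chosen with earlier results of these data known, so the counts describe their members and are no independent evidence. Among all genes called in the interaction, the most frequent course was a decrease at 4 h that was no longer called at 48 h. At an adjusted p under 0.05 (edgeR's quasi-likelihood test with Benjamini-Hochberg adjustment over all tested genes), 375 genes were called in the interaction, 2.33% of those tested, of which 253 (1.57%) were positive and 122 (0.759%) negative. At least 2-fold differences were found in 22 of the positive and 3 of the negative genes. At 4 h, 965 genes (6%) differed from DMSO, 356 higher (2.21%) and 609 lower (3.79%). At 48 h the number was 312 (1.94%), 160 higher (0.995%) and 152 lower (0.946%). The 2 libraries of a group differed more from each other at 4 h than at 48 h. The chi-square per degree of freedom between them was 8.01 with DMSO and 14.7 with momelotinib at 4 h. At 48 h it was 4.38 and 3.63. The fit estimated the spread from all groups together, and the part of this difference in the counts at each time was not tested.

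Sorted by their calls at each time, 191 of the 375 genes were lower at 4 h and no longer called at 48 h, with median log2 fold changes of -0.40 and 0.05. A further 6 genes (ETV5, HES1, KAZN, PLCH1, TIMP3 and UBASH3B) were lower at both times with a smaller decrease at 48 h, and 8 were lower at 4 h and higher at 48 h. The calls at 48 h of HES1 and KAZN were lost when any of the 4 libraries of that time was left out (edgeR adjusted p = 0.132 to 0.274 and 0.0808 to 0.192). That of TIMP3 was lost without DMSO replicate 1, DMSO replicate 2 or momelotinib replicate 1 of that time (adjusted p = 0.128, 0.21 and 0.397). The interaction call of HES1 was lost in 6 of 8 such fits (adjusted p = 0.0621 to 0.255), all but those without momelotinib at 4 h replicate 1 and DMSO at 48 h replicate 1. Increases were lost in 63 genes and turned into decreases in 2. A late decrease was found in 29 genes and a late increase in 20, and 56 genes, 28 of each sign, were called at neither time alone. In edgeR's adjusted calls 0 genes had a decrease that deepened. At an unadjusted p under 0.05 in all 3 contrasts there were 3, and DESeq2 gave 1. These classes use the same contrasts as the interaction, so their medians are a description of the genes and no further evidence.

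The number of calls depended on single libraries. Leaving out DMSO at 4 h replicate 1 gave 205 genes in the interaction and leaving out its replicate 2 gave 159. Without momelotinib at 4 h replicate 2 there were 242, while without replicate 1 there were 480. Without DMSO at 48 h replicate 1 or 2 there were 233 or 131, and without momelotinib at 48 h replicate 1 or 2 there were 199 or 141. The group of lost decreases held 116, 95, 96 and 91 genes without DMSO at 4 h replicate 1, DMSO at 4 h replicate 2, DMSO at 48 h replicate 2 and momelotinib at 48 h replicate 2. The effect at 4 h fell to 567 and 453 calls without DMSO at 4 h replicate 1 and 2. The effect at 48 h fell further, to 58, 49, 25 and 77 calls without DMSO replicate 1, DMSO replicate 2, momelotinib replicate 1 and momelotinib replicate 2 of that time.

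**Figure D1:**
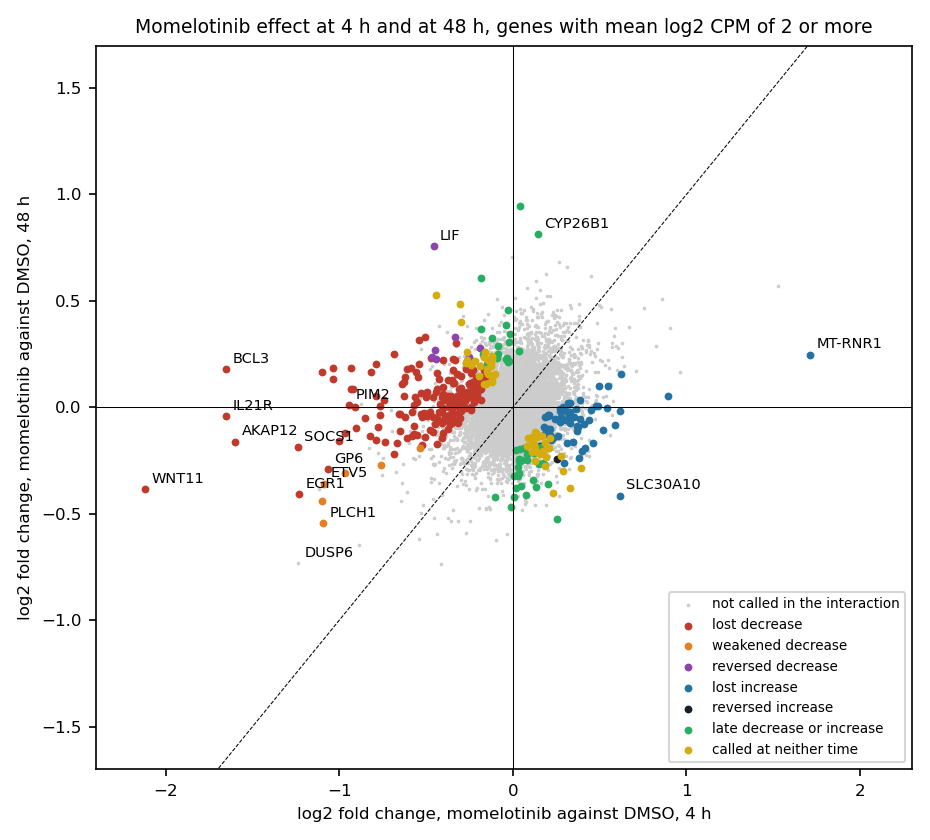
Log2 fold change of momelotinib against DMSO at 4 h (x axis) and at 48 h (y axis) for genes whose mean log2 CPM was 2 or more. Each point is 1 gene, coloured points are called in the interaction by class, grey points are not, and the dashed line marks equal effects. Most coloured points lie left of 0 and near the horizontal line, such as BCL3 at -1.65 and 0.18, while DUSP6 at -1.24 and -0.73 stayed low at both times.

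The libraries of the 2 times are separate, so the genes chosen at 4 h can be followed in libraries that did not choose them. Of the 609 genes lower at 4 h, 35 were called lower at 48 h (5.75%, against 0.946% of all tested genes), 8 were called higher and 566 were not called. Their median log2 fold change was -0.31 at 4 h and -0.04 at 48 h, beside 0.00 over all tested genes at 48 h, and 391 of them (64.2%) were below 0. The remaining effect was therefore small and still mostly downward. The 4 h median of genes chosen at 4 h is exaggerated by the choice, so the 2 medians do not measure fading alone. Chosen the other way, the 152 genes lower at 48 h had a median of -0.06 at 4 h. Of these, 70.4% were below 0 and 23% were called lower at 4 h. The 160 genes higher at 48 h had a median of 0.10 at 4 h. Of the 34 genes at least 2-fold lower at 4 h, 4 were called lower at 48 h, and their median was -1.24 at 4 h and -0.29 at 48 h. Of the 356 genes higher at 4 h, 29 were called higher and 2 lower at 48 h, with medians of 0.29 and 0.05. A missing call at 48 h does not show that the decrease was gone: of the 566 genes, 191 were also called in the interaction and 375 were not. The count of genes lower at both times was 22, 17, 11, 13, 8 and 17 without DMSO at 4 h replicate 1, DMSO at 4 h replicate 2, DMSO at 48 h replicate 1, DMSO at 48 h replicate 2, momelotinib at 48 h replicate 1 and momelotinib at 48 h replicate 2.

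A change of the interaction can come from either treatment. Between 4 h and 48 h, 2283 genes (14.2%) changed in momelotinib and 1312 (8.16%) in DMSO. Among the 191 genes of the lost decrease, the momelotinib libraries differed between the times in 158 and the DMSO libraries in 59, and in 129 genes only the first of the pair was called. Without 1 library the DMSO count was 682, 494, 597 and 499 (DMSO at 4 h replicate 1 and 2, DMSO at 48 h replicate 1 and 2), and the momelotinib count was 1160 and 1238 without momelotinib at 48 h replicate 1 and 2.

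Of 22 tested JAK-STAT targets, 16 were lower at 4 h and 0 higher, beside 3.79% and 2.21% of all tested genes. At 48 h 0 were lower in edgeR's adjusted calls (3 at an unadjusted p under 0.05 and 1 in DESeq2) and 1, LIF, was higher. In the interaction 11 were positive and 0 negative in edgeR's adjusted calls, beside 1.57% and 0.759% of all tested genes. At an unadjusted p under 0.05 these counts were 16 and 0, and DESeq2 gave 12 and 0. The median of the list was -0.32 at 4 h, 0.02 at 48 h and 0.45 in the interaction, beside 0.01, 0.00 and -0.00 over all tested genes. The count of 11 was 9 to 12 when any library was left out.

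Of the feedback inhibitors of the pathway, SOCS3, SOCS1 and CISH were called lower at 4 h, were not called at 48 h and were positive in the interaction, while SOCS2 was called in none of these. SOCS3 (ENSG00000184557, chromosome 17 from 78356778 to 78360077 in GRCh38, GENCODE 29) binds JAK kinases and the receptor. It stood at 33.4 and 32.1 CPM with DMSO and at 16.6 and 15.3 CPM with momelotinib at 4 h, and at 32.6 and 36.4 against 38.2 and 37.4 CPM at 48 h. At 4 h both momelotinib libraries were below both DMSO libraries, which holds for 21.7% of all tested genes, and at 48 h both were slightly above. The log2 fold change was -1.04 ± 0.13 (SE, n = 2 libraries a group) at 4 h and 0.13 ± 0.12 at 48 h, and the interaction was 1.17 ± 0.17 (edgeR adjusted p = 7.31e-05).

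SOCS1, which acts at the same step, stood at 11.4 and 11.7 CPM against 5.39 and 4.44 CPM at 4 h, and at 9.06 and 7.5 against 6.62 and 7.89 CPM at 48 h, where the libraries overlapped. Its interaction was 1.05 ± 0.23 (edgeR adjusted p = 0.00982), and the call was lost without momelotinib at 4 h replicate 2, DMSO at 48 h replicate 2 or momelotinib at 48 h replicate 2 (adjusted p = 0.0609, 0.0886 and 0.0949). The values of SOCS2 were -0.20 ± 0.08 at 4 h and 0.03 ± 0.08 at 48 h.

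CISH (ENSG00000114737, chromosome 3 from 50606490 to 50611831) is a STAT5 target that competes with STAT5 at the receptor. With DMSO it stood at 43.7 and 51.9 CPM and with momelotinib at 37.9 and 37.7 CPM at 4 h, and at 48 h at 44.4 and 44.6 against 52.9 and 51.1 CPM. The momelotinib libraries were thus the lower pair at 4 h and the higher pair at 48 h, with 0.23 ± 0.07 at 48 h not called (edgeR adjusted p = 0.109). The interaction was 0.57 ± 0.10 (adjusted p = 0.00151), and its decrease at 4 h of -0.34 ± 0.07 was not called without DMSO at 4 h replicate 2 (adjusted p = 0.251).

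The promoter of CISH is shown because it holds 4 copies of the STAT motif, and that of IRF1, also on the list, because it holds 1. Sequences are from RefSeq (GRCh38.p14), 5′ to 3′ on the minus strand, at chr3:50611832-50612024 for CISH and chr5:132490799-132491023 for IRF1. Capitals mark the motif TTCNNNGAA, where N is any base and which reads the same on both strands.
CISH: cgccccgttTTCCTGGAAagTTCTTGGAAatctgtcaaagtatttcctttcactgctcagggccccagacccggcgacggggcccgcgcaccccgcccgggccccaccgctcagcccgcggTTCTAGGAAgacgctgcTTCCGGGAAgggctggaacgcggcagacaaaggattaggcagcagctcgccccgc
IRF1: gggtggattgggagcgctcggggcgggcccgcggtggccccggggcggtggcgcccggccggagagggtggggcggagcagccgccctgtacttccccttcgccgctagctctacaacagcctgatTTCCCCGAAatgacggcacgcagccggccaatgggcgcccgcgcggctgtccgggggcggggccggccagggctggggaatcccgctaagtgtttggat
Both stretches stop where GENCODE 29 starts the gene. Counted from 1 at the 5′ end of each stretch, the copies in CISH begin at bases 10, 21, 122 and 139 of 193, and the copy in IRF1 begins at base 127 of 225. Of 35116 promoters in the table, 6.567% held the motif within the 250 bases before the start that RefSeq gives. It was found in 3 of 18 JAK-STAT targets with a promoter in the table, and in 10 of 147 genes of the lost decrease (6.803%), a share near that of all promoters. IRF1 itself did not pass the test, with an interaction of 0.22 (edgeR adjusted p = 0.52).

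The PIM kinases promote growth and survival. PIM2 stood at 183 and 188 CPM with DMSO and at 99.4 and 93.6 CPM with momelotinib at 4 h, and at 48 h at 156 and 156 against 157 and 157 CPM. The libraries at 48 h were equal to within 1 CPM after a clear gap at 4 h. Its log2 fold change was -0.94 ± 0.06 at 4 h and 0.01 ± 0.06 at 48 h, and its interaction was 0.95 ± 0.08 (edgeR adjusted p = 1.22e-08). PIM1 fell from 628 and 632 to 514 and 476 CPM at 4 h and stood at 564 and 573 against 562 and 567 CPM at 48 h. Its interaction of 0.34 ± 0.08 (adjusted p = 0.01) was not called without momelotinib at 4 h replicate 2 or momelotinib at 48 h replicate 2 (adjusted p = 0.0587 and 0.0545).

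Among the inhibitors of cell death, BCL2L1 and BCL2 were called in the interaction and MCL1 was not. BCL2L1, which encodes BCL-XL and is a STAT5 target in red cell precursors, stood at 232 and 229 CPM against 157 and 151 CPM at 4 h, and at 212 and 218 against 209 and 215 CPM at 48 h. The groups were apart at 4 h and overlapped at 48 h. The log2 fold changes were -0.58 ± 0.04 and -0.02 ± 0.04, and the interaction was 0.56 ± 0.06 (edgeR adjusted p = 5.91e-07). BCL2 was at 12 and 11.7 CPM against 6.58 and 7.47 CPM at 4 h and overlapped at 48 h, with an interaction of 0.78 ± 0.15 (adjusted p = 0.0022). MCL1 fell by 0.22 ± 0.05 on the log2 scale at 4 h, was at -0.02 ± 0.05 at 48 h and was not called in the interaction (adjusted p = 0.124). Of the 15 tested genes of the BCL2 family, 4 were lower at 4 h and 2 were positive in the interaction, beside 3.79% and 1.57% of all tested genes. At 48 h 0 were called by edgeR (1 lower at an unadjusted p under 0.05, 0 by DESeq2).

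BCL3 (ENSG00000069399, chromosome 19 from 44747705 to 44760044), a co-activator of NF-kB and a STAT3 target, had the highest interaction of the called genes whose mean log2 CPM was 2 or more. It stood at 23.6 and 22.9 CPM against 7.31 and 7.45 CPM at 4 h and at 16.5 and 15.3 against 16 and 19.9 CPM at 48 h. The decrease at 4 h was -1.65 ± 0.14, the effect at 48 h was 0.18 ± 0.14 and the interaction was 1.83 ± 0.20 (edgeR adjusted p = 4.54e-07). Part of this came from DMSO, in which BCL3 fell by 0.55 ± 0.13 between the times (adjusted p = 0.00775), while in momelotinib it rose by 1.28 ± 0.15. IL21R, a cytokine receptor that signals through JAK1, showed no such change in DMSO (0.11 ± 0.10). It stood at 22 and 19.7 CPM against 7.04 and 6.23 CPM at 4 h and at 22 and 22.9 against 21.6 and 22.1 CPM at 48 h. Its interaction was 1.61 ± 0.15 (adjusted p = 2.5e-08). IL4R, another receptor of the family, had an interaction of 0.85 ± 0.15 (adjusted p = 0.00108).

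Not every target of the list was called in the interaction. MYC and CCND2, which drive entry into the cell cycle, were called lower at 4 h and had nearly the same difference at 48 h. MYC was at -0.16 ± 0.04 at 4 h and -0.14 ± 0.04 at 48 h, with an interaction of 0.01 ± 0.06 (edgeR adjusted p = 0.962). CCND2 was at -0.17 ± 0.05 and -0.13 ± 0.05, with an interaction of 0.04 ± 0.07. At 48 h neither passed the test (adjusted p = 0.0507 and 0.199). At 4 h the call of MYC was lost without DMSO replicate 1, DMSO replicate 2 or momelotinib replicate 2 (adjusted p = 0.0638, 0.0868 and 0.121) and that of CCND2 without DMSO replicate 1, DMSO replicate 2 or momelotinib replicate 1 (adjusted p = 0.129, 0.187 and 0.345). CCND3 did change, with an interaction of 0.34 ± 0.07 (adjusted p = 0.00523).

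**Figure D2:**
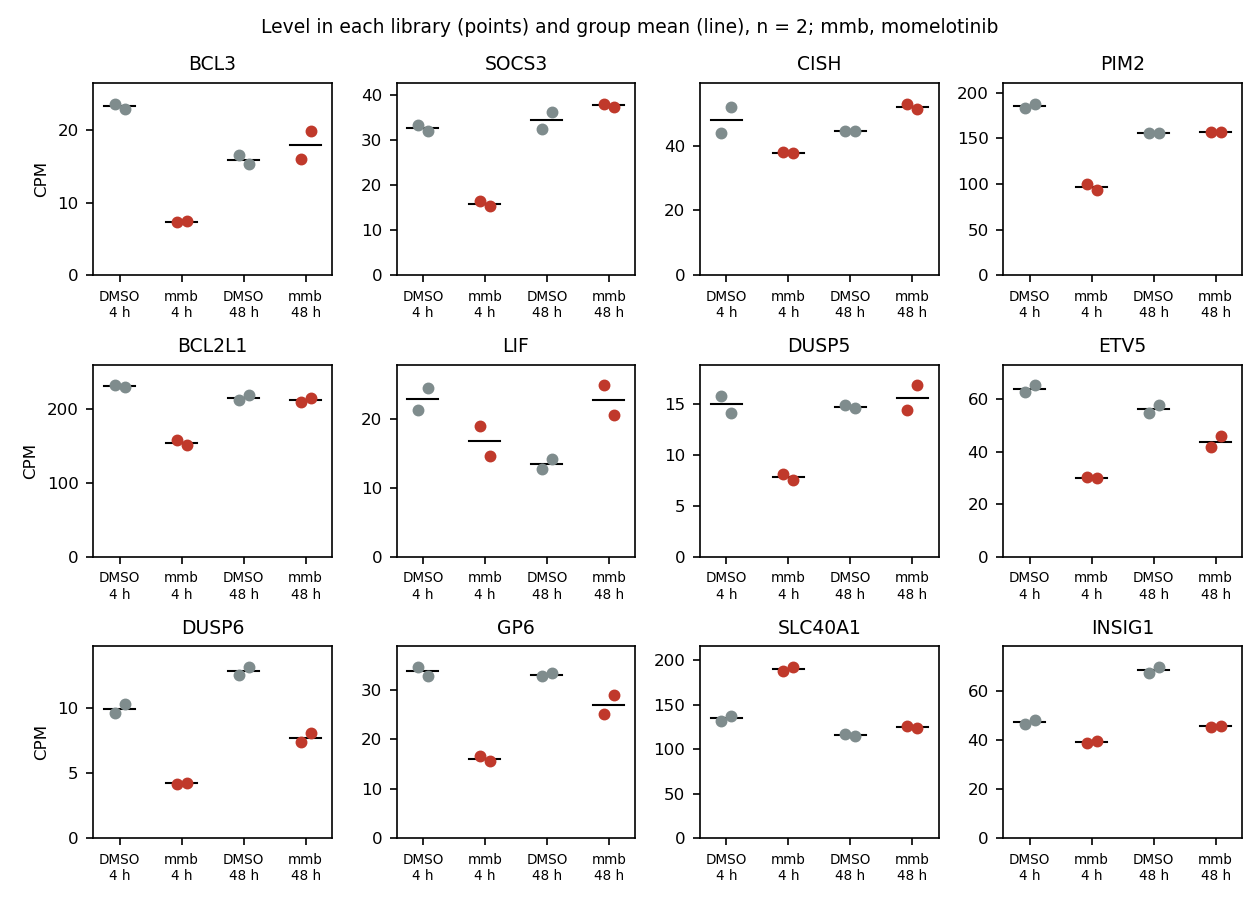
Level in CPM (y axis, from 0) of 12 genes in each of the 8 libraries, with DMSO in grey and momelotinib (mmb) in red at 4 h and 48 h, points for libraries and a line for the mean of n = 2. PIM2 and BCL2L1 are apart at 4 h and together at 48 h, LIF is below DMSO at 4 h and above it at 48 h, and DUSP6 stays below DMSO at both times.

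Of 21 tested ERK outputs, 14 were lower at 4 h and 4 (DUSP6, ETV5, ETV4 and CCND1) at 48 h in edgeR's adjusted calls. Of all tested genes 3.79% and 0.946% were lower at these times. DESeq2 gave 14 and 3, and did not call CCND1 at 48 h. In the interaction 6 were positive and 0 negative in edgeR's adjusted calls, beside 1.57% and 0.759% of all tested genes. The counts were 11 and 0 at an unadjusted p under 0.05, and 7 and 0 in DESeq2. The median of the list was -0.67 at 4 h, -0.15 at 48 h and 0.44 in the interaction. The count of 6 became 4 without DMSO at 48 h replicate 1 or without momelotinib at 48 h replicate 1.

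FOSL1, DUSP5 and EGR1 were called lower at 4 h and were not called at 48 h. FOSL1, a subunit of the AP-1 factor, stood at 57 and 54.5 CPM against 33.4 and 29.9 CPM at 4 h and at 45.1 and 40 against 45.4 and 49.9 CPM at 48 h, with an interaction of 0.98 ± 0.11 (edgeR adjusted p = 1.55e-06). DUSP5, which dephosphorylates ERK in the nucleus, stood at 15.8 and 14.2 CPM against 8.09 and 7.56 CPM at 4 h and overlapped at 48 h, with an interaction of 1.02 ± 0.19 (adjusted p = 0.0022). EGR1, an immediate early factor, was at 30.4 and 32.4 CPM against 15.8 and 11.1 CPM at 4 h and at 22.6 and 21.4 against 17.5 and 15.6 CPM at 48 h, so that its momelotinib libraries were below DMSO at both times (-0.41 ± 0.12 at 48 h, edgeR adjusted p = 0.0818). Its interaction of 0.82 ± 0.18 (adjusted p = 0.00684) was not called without momelotinib at 4 h replicate 2, DMSO at 48 h replicate 2 or momelotinib at 48 h replicate 1 (adjusted p = 0.0736, 0.0502 and 0.0535).

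Other ERK outputs stayed low. DUSP6, the phosphatase that acts on ERK in the cytoplasm, stood at 9.57 and 10.3 CPM against 4.18 and 4.23 CPM at 4 h and at 12.5 and 13.1 against 7.34 and 8.07 CPM at 48 h. Its log2 fold change was -1.24 ± 0.12 at 4 h and -0.73 ± 0.11 at 48 h, and the interaction of 0.50 ± 0.17 was not called (edgeR adjusted p = 0.124). ETV5 (ENSG00000244405, chromosome 3 from 186046308 to 186110318), an ETS factor, stood at 62.6 and 65.3 CPM against 30.2 and 30.1 CPM at 4 h and at 54.6 and 57.6 against 41.6 and 45.8 CPM at 48 h. Its decrease weakened from -1.09 ± 0.08 to -0.36 ± 0.07, with an interaction of 0.73 ± 0.11 (adjusted p = 6.69e-05). The call at 48 h was lost without DMSO at 48 h replicate 2 or momelotinib at 48 h replicate 1 (adjusted p = 0.156 and 0.211). In CCND1, which encodes cyclin D1 and was low throughout, the difference was -0.93 ± 0.26 at 4 h and -1.51 ± 0.23 at 48 h. DESeq2 did not call the difference at 48 h. The level of CCND1 was 1.84 and 2.26 CPM against 1.16 and 1.02 CPM at 4 h and 5.05 and 4.62 against 1.72 and 1.66 CPM at 48 h. The interaction of CCND1 was not called (adjusted p = 0.5), and its call at 4 h was lost without DMSO replicate 2, momelotinib replicate 1 or momelotinib replicate 2 of that time (adjusted p = 0.28, 0.0663 and 0.158).

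**Figure D3:**
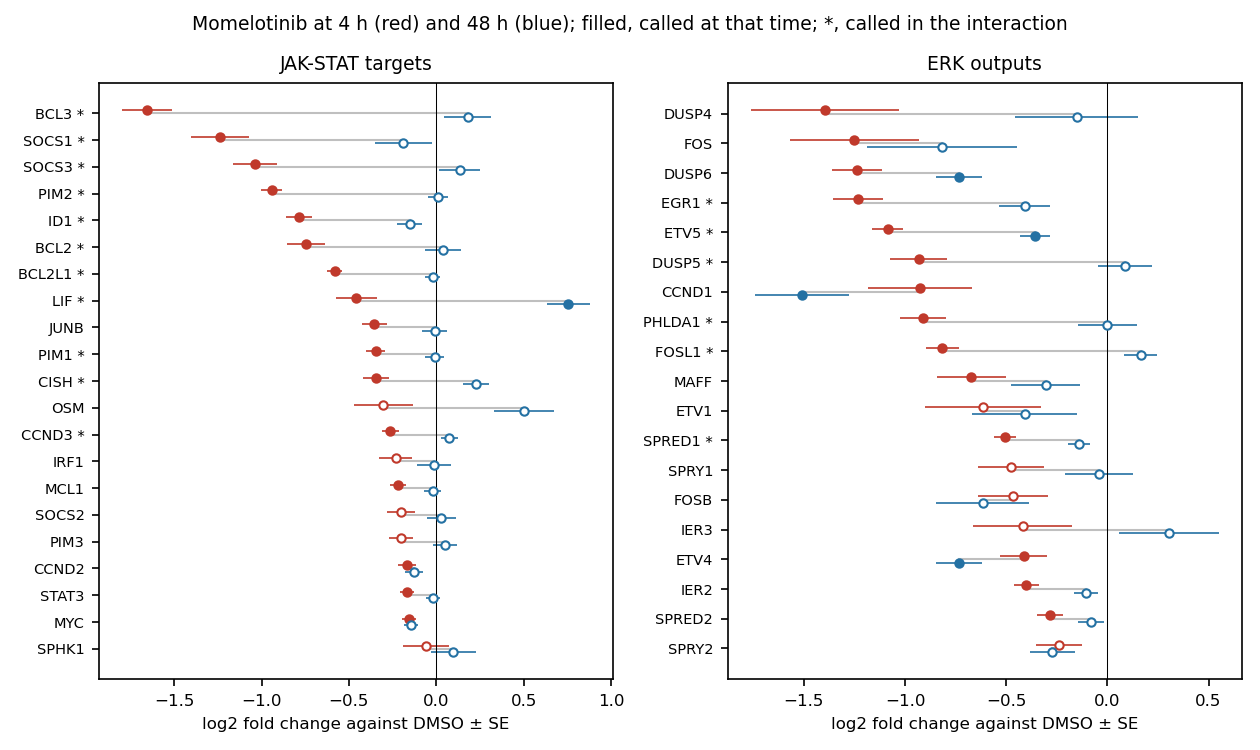
Log2 fold change of momelotinib against DMSO ± SE (x axis) for JAK-STAT targets (left) and ERK outputs (right) whose mean log2 CPM was 0 or more, at 4 h in red and at 48 h in blue. Filled points are called at that time and an asterisk marks a call in the interaction. In the left panel the blue points gather around 0, with LIF at 0.76 the exception that is filled, while in the right panel DUSP6, ETV5, ETV4 and CCND1 keep filled blue points below 0.

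Several genes outside these lists also had high interactions. WNT11, a secreted ligand, stood at 12.8 and 13.1 CPM against 3.29 and 2.69 CPM at 4 h and at 18.8 and 19.1 against 14.7 and 14.3 CPM at 48 h. The 2 pairs stayed apart at 48 h, but the difference had narrowed from -2.12 ± 0.15 to -0.38 ± 0.12 (not called, edgeR adjusted p = 0.105), and the interaction was 1.74 ± 0.20 (adjusted p = 1e-06). AKAP12, a scaffold protein for kinases, had an interaction of 1.44 ± 0.17 (adjusted p = 2.6e-06). BHLHE40, a repressor of transcription, had 1.22 ± 0.11 (adjusted p = 2.84e-08), and LFNG, which modifies Notch receptors, had 1.27 ± 0.21 (adjusted p = 0.000348). In the weakened group, UBASH3B, a tyrosine phosphatase that removes activating phosphates from receptor signalling, stood at 264 and 263 CPM against 131 and 138 CPM at 4 h and at 264 and 264 against 204 and 222 CPM at 48 h. Its decrease was -0.97 ± 0.05 at 4 h and -0.31 ± 0.05 at 48 h, and the interaction was 0.66 ± 0.07 (adjusted p = 5.91e-07). Without momelotinib at 48 h replicate 1 its effect at 48 h was not called (adjusted p = 0.0999).

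A rebound above DMSO was called in 8 genes. LIF (ENSG00000128342, chromosome 22 from 30240447 to 30246851), a cytokine of the IL-6 family that signals through JAK and STAT3, stood at 21.4 and 24.5 CPM with DMSO and at 19 and 14.6 CPM with momelotinib at 4 h, and at 12.8 and 14.2 against 25 and 20.7 CPM at 48 h. The pairs did not overlap at either time and changed order. In DMSO LIF fell by 0.77 ± 0.12 between the times and in momelotinib it rose by 0.44 ± 0.12. The log2 fold change was -0.46 ± 0.12 at 4 h and 0.76 ± 0.12 at 48 h, and the interaction was 1.21 ± 0.17 (edgeR adjusted p = 4.02e-05). The effect at 4 h was not called without DMSO at 4 h replicate 2 or momelotinib at 4 h replicate 2 (adjusted p = 0.266 and 0.268), and the effect at 48 h not without momelotinib at 48 h replicate 1 (adjusted p = 0.0723). NOTCH1, the receptor, stood at 165 and 164 CPM against 113 and 124 CPM at 4 h and at 148 and 142 against 169 and 173 CPM at 48 h, with an interaction of 0.70 ± 0.08 (adjusted p = 1e-06). SEMA7A, a membrane-bound semaphorin, stood at 254 and 254 CPM against 195 and 179 CPM at 4 h and at 203 and 196 against 238 and 229 CPM at 48 h, with an interaction of 0.67 ± 0.07 (adjusted p = 3.33e-07). The interaction calls of LIF, NOTCH1 and SEMA7A were kept in each of the 16 other settings and fits, but the rise at 48 h of NOTCH1 and of SEMA7A was not called when any of the 4 libraries of that time was left out (adjusted p = 0.0895 to 0.28 and 0.0559 to 0.222). The count of 8 was 4 without DMSO at 4 h replicate 2, 1 and 2 without DMSO at 48 h replicate 1 and 2, and 0 and 2 without momelotinib at 48 h replicate 1 and 2.

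Some genes of sterol and lipid synthesis were lower at both times. Of 30 tested members of the list, 6 were lower at 4 h and 11 at 48 h, beside 3.79% and 0.946% of all tested genes. Lower at both were 5 of them, HMGCS1 and INSIG1 among them. At either time 0 were higher in edgeR's adjusted calls, at an unadjusted p under 0.05 or in DESeq2. The median of the list was -0.10 at 4 h and -0.19 at 48 h. INSIG1, which helps to retain the transcription factor SREBP in the endoplasmic reticulum and is itself an SREBP target, stood at 46.6 and 48 CPM against 38.8 and 39.6 CPM at 4 h and at 67.4 and 69.8 against 45.2 and 45.7 CPM at 48 h. The gap grew mainly because the level in DMSO rose between the times by 0.54 ± 0.06, against 0.21 ± 0.07 in momelotinib. The log2 fold change was -0.27 ± 0.07 at 4 h and -0.59 ± 0.06 at 48 h, and the interaction of -0.32 ± 0.09 missed the threshold (edgeR adjusted p = 0.0548). In the 16 other settings and fits the interaction of INSIG1 lay between -0.35 and -0.30, and it was called in 7 of them. HMGCS1, an early enzyme of the pathway, was at -0.25 ± 0.06 and -0.39 ± 0.06 with an interaction of -0.13 ± 0.08 (adjusted p = 0.535). At 4 h the call of INSIG1 was lost without DMSO replicate 2 or momelotinib replicate 1 (adjusted p = 0.115 and 0.0526) and that of HMGCS1 without DMSO replicate 1 or momelotinib replicate 1 (adjusted p = 0.0564 and 0.0726). SCD, a fatty acid desaturase, was the 1 member called in the interaction, at -0.32 ± 0.08 (adjusted p = 0.0177), with -0.10 ± 0.05 at 4 h and -0.42 ± 0.05 at 48 h. That call was lost without DMSO at 4 h replicate 2, momelotinib at 4 h replicate 2, DMSO at 48 h replicate 2, or momelotinib at 48 h replicate 1 or 2 (adjusted p = 0.0963, 0.0701, 0.103, 0.0883 and 0.0673). The 11 members lower at 48 h became 6 and 5 without DMSO replicate 1 and 2 and 4 and 7 without momelotinib replicate 1 and 2 of that time.

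Increases at 4 h were lost in 63 genes. SLC40A1, which encodes the iron exporter ferroportin, stood at 132 and 137 CPM against 187 and 193 CPM at 4 h and at 117 and 115 against 125 and 124 CPM at 48 h. The momelotinib pair was above DMSO at both times, with 0.50 ± 0.05 at 4 h and 0.10 ± 0.05 at 48 h, and the interaction was -0.40 ± 0.07 (edgeR adjusted p = 0.000457). CSF2RB, the common beta chain of the receptors for IL-3, IL-5 and GM-CSF, was 1 of the 2 genes whose increase turned into a decrease. It stood at 84.5 and 87 CPM against 103 and 102 CPM at 4 h and at 100 and 93.8 against 83.2 and 80.8 CPM at 48 h, with an interaction of -0.50 ± 0.07 (adjusted p = 5.63e-05). Its decrease at 48 h of -0.24 ± 0.05 was not called without DMSO replicate 1, momelotinib replicate 1 or momelotinib replicate 2 of that time (adjusted p = 0.148, 0.0956 and 0.113). JAK2, the mutated kinase and a target of the compound, stood at 165 and 159 CPM against 180 and 203 CPM at 4 h and at 168 and 177 against 182 and 180 CPM at 48 h. Its increase of 0.25 ± 0.05 at 4 h became 0.07 ± 0.05 at 48 h, and the interaction of -0.18 ± 0.08 was not called (adjusted p = 0.266). The call of JAK2 at 4 h was lost without DMSO replicate 2 or momelotinib replicate 2 (adjusted p = 0.0768 and 0.143). The number of lost increases was 32, 17, 32, 33, 12, 32 and 16 when DMSO at 4 h replicate 1, DMSO at 4 h replicate 2, momelotinib at 4 h replicate 2, DMSO at 48 h replicate 1, DMSO at 48 h replicate 2, momelotinib at 48 h replicate 1 and momelotinib at 48 h replicate 2 was left out.

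MT-RNR1, a mitochondrial ribosomal RNA, had the lowest interaction of the called genes whose mean log2 CPM was 2 or more, -1.47 ± 0.40 (edgeR adjusted p = 0.0425). It stood at 56.9 and 17.2 CPM against 131 and 105 CPM at 4 h and at 223 and 338 against 296 and 369 CPM at 48 h, so the 2 DMSO libraries at 4 h differed from each other more than 3-fold. The call was lost without DMSO at 4 h replicate 2, momelotinib at 4 h replicate 1, DMSO at 48 h replicate 2, momelotinib at 48 h replicate 1 or momelotinib at 48 h replicate 2 (adjusted p = 0.31, 0.0734, 0.257, 0.175 and 0.0768), in DESeq2 and in a fit of the 8 libraries alone.

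Late changes called in the interaction were 29 decreases and 20 increases. A further 86 genes were lower and 103 higher at 48 h but were called neither at 4 h nor in the interaction. CYP26B1, an enzyme that breaks down retinoic acid, stood at 20.1 and 19.2 CPM against 20.8 and 22.5 CPM at 4 h and at 6.84 and 7.42 against 13.2 and 11.9 CPM at 48 h. It fell in both treatments between the times, by 1.46 ± 0.12 in DMSO and by 0.79 ± 0.11 in momelotinib on the log2 scale, so that the momelotinib libraries were the higher pair at 48 h. Its interaction of 0.67 ± 0.16 (edgeR adjusted p = 0.018) was lost without DMSO at 4 h replicate 1, DMSO at 48 h replicate 1, DMSO at 48 h replicate 2 or momelotinib at 48 h replicate 1 (adjusted p = 0.0649, 0.098, 0.0542 and 0.107). CCNB1IP1, a ubiquitin ligase, was at 0.14 ± 0.07 at 4 h and -0.38 ± 0.07 at 48 h, with an interaction of -0.51 ± 0.10 (adjusted p = 0.00248). Its decrease at 48 h was not called without DMSO replicate 1 or momelotinib replicate 2 of that time (adjusted p = 0.0755 and 0.0893).

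In the lists of globins, haem synthesis and the red cell membrane 0 genes were called in the interaction by edgeR, and some were called at a single time. With 2.33% of all tested genes called, 0 calls in lists of 10, 13 and 20 genes is near that share. Related lists did hold calls. Of 22 erythroid and megakaryocyte factors 1 was positive and 1 negative, and so it was for 15 genes of iron handling. Of 10 tested globin genes 0 were called in the interaction by edgeR or DESeq2 (1 positive and 2 negative at an unadjusted p under 0.05). At 48 h 2, HBA2 and HBQ1, were higher, beside 0.995% of all tested genes. The call of HBQ1 was lost when any of the 4 libraries of that time was left out. HBA2 stood at 217 and 219 CPM against 269 and 217 CPM at 4 h and at 159 and 152 against 231 and 225 CPM at 48 h. Between the times it changed by -0.49 ± 0.10 in DMSO and by -0.09 ± 0.10 in momelotinib, and the interaction of 0.39 ± 0.14 was not called (edgeR adjusted p = 0.147). The effect at 48 h was 0.55 ± 0.10 (edgeR adjusted p = 0.00188), lost without DMSO replicate 2 or momelotinib replicate 1 of that time (adjusted p = 0.0648 and 0.0549). Reads of HBA2 and of its near-identical copy HBA1 can be assigned to either gene, so their values are uncertain. Of 13 genes of haem synthesis and 20 of the red cell membrane, 0 were called in the interaction by edgeR. At an unadjusted p under 0.05, 1 of the first list was positive and 5 negative, and 4 of the second were negative. DESeq2 called 3 of the first and 1 of the second, all negative. At 4 h 4 genes of haem synthesis were higher and 1 lower, and at 48 h 2 were higher and 1 lower. Of the red cell membrane genes 4 were higher at 4 h and 2 at 48 h, beside 2.21% and 0.995% of all tested genes called higher. In bulk samples fewer cells of a type and less RNA per cell cannot be told apart.

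Platelet genes, which HEL cells express as part of their megakaryocytic character, were called in both directions. Of 27 tested, 9 were lower and 2 higher at 4 h, beside 3.79% and 2.21% of all tested genes. At 48 h 1 (GP5) was higher and 0 were lower in edgeR's adjusted calls, beside 0.995% and 0.946%. Lower at 48 h were 6 at an unadjusted p under 0.05 and 2 in DESeq2. The call of GP5 was lost when any of the 4 libraries of that time was left out. In the interaction 5 were positive and 1 negative, beside 1.57% and 0.759% of all tested genes, with a median of 0.10. GP6, the platelet collagen receptor, stood at 34.6 and 32.7 CPM against 16.6 and 15.6 CPM at 4 h and at 32.8 and 33.3 against 25.1 and 28.9 CPM at 48 h. Its difference narrowed from -1.07 ± 0.08 to -0.29 ± 0.08, with an interaction of 0.77 ± 0.12 (edgeR adjusted p = 0.00012). TBXA2R, the thromboxane receptor, had an interaction of 0.85 ± 0.12 (adjusted p = 2.27e-05) and MMRN1, a protein of platelet granules, of 0.48 ± 0.10 (adjusted p = 0.00488). PLEK, a substrate of protein kinase C in platelets, moved the other way, from 0.27 ± 0.04 at 4 h to -0.02 ± 0.04 at 48 h, with an interaction of -0.29 ± 0.06 (adjusted p = 0.00438). GFI1B, a repressor needed in both lineages, stood at 247 and 249 CPM against 172 and 159 CPM at 4 h and at 278 and 259 against 241 and 249 CPM at 48 h, with an interaction of 0.45 ± 0.08 (adjusted p = 0.00112).

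The BMP-SMAD list bears on ACVR1, another known target of momelotinib. Of its 13 tested genes, 3 (ID1, ID2 and SMURF2) were lower at 4 h and 0 at 48 h in edgeR's adjusted calls and in DESeq2 (3 at an unadjusted p under 0.05). Of all tested genes 3.79% were lower at 4 h and 0.946% at 48 h. ID1, which is also a STAT5 target and is counted in the JAK-STAT list, stood at 73.1 and 72 CPM against 42.3 and 41.8 CPM at 4 h and at 85.1 and 90.7 against 78.2 and 79.9 CPM at 48 h. Its interaction was 0.63 ± 0.10 (edgeR adjusted p = 0.000423). ID2 was at -0.58 ± 0.11 and -0.24 ± 0.10 with an interaction of 0.34 ± 0.15 that was not called (adjusted p = 0.302), and ID3 was at -0.28 ± 0.11 and -0.26 ± 0.11 with an interaction of 0.01 ± 0.16.

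**Figure D4:**
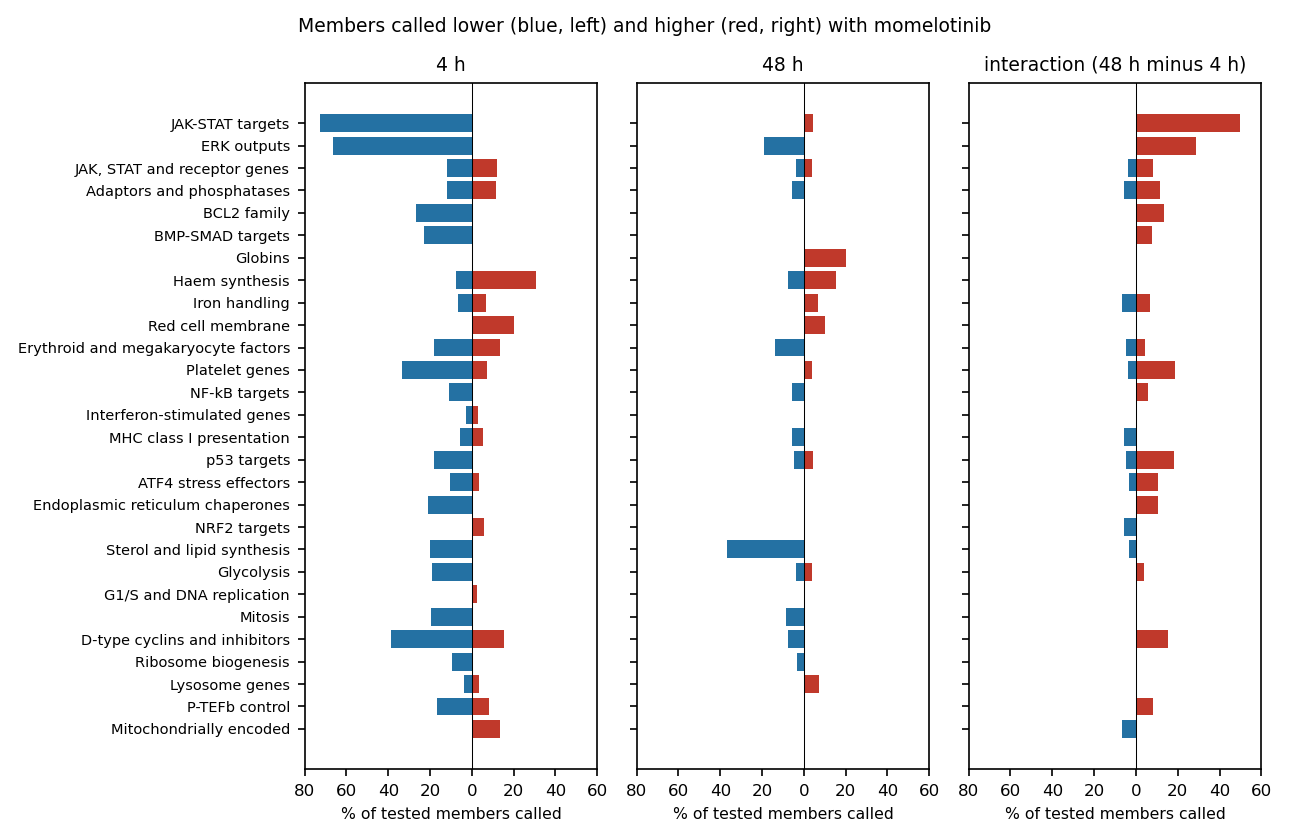
Share of the tested members of each gene list called lower (blue, to the left of 0) or higher (red, to the right) with momelotinib at 4 h, at 48 h and in the interaction, in percent on the x axis. JAK-STAT targets and ERK outputs have the longest blue bars at 4 h and the longest red bars in the interaction, and sterol and lipid synthesis has the longest blue bar at 48 h.

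Some mitotic genes were called lower at each time. Of 36 tested, 7 were lower at 4 h (beside 3.79% of all genes) and 3 at 48 h (beside 0.946%), and DESeq2 gave 10 and 7. In the interaction, in which 2.33% of all genes were called, 0 of 40 genes of the G1/S transition and DNA replication and 0 of 36 mitotic genes were called by edgeR. At an unadjusted p under 0.05 the first list had 3 positive and 4 negative genes and the second 1 and 2, and DESeq2 called 1 of each sign in the first and 0 in the second. Likewise 0 of 35 interferon-stimulated genes, which other STAT factors drive, were called in the interaction by edgeR or DESeq2 (3 positive and 1 negative at an unadjusted p under 0.05). In lists of this size 0 calls is near the share of all tested genes.

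Ruxolitinib, another inhibitor of JAK1 and JAK2, was given at the same dose of 500 nM for the same times, with 2 libraries each, and the difference between the interactions of the 2 compounds does not use DMSO. It was called in 1748 genes (10.9%), 928 higher with momelotinib (5.77%) and 820 lower (5.1%). The number was 1143 without ruxolitinib at 4 h replicate 1 and 1094 without momelotinib at 48 h replicate 2. The interaction of ruxolitinib itself, which shares the DMSO libraries, was called in 1402 genes (8.72%), 694 positive (4.32%) and 708 negative (4.4%). Against pacritinib, a JAK2 inhibitor given at the same dose and times, 1607 genes were called (10%), 637 higher with momelotinib (3.96%) and 970 lower (6.03%). That count was 764 without pacritinib at 4 h replicate 2, 969 without pacritinib at 48 h replicate 1, and 1069 and 974 without momelotinib at 48 h replicate 1 and 2. In the comparison with ruxolitinib, of the ERK outputs 8 of 21 were higher and 0 lower, of the platelet genes 10 of 27 higher and 3 lower. Of the globins 8 of 10 were lower and 0 higher, of haem synthesis 10 of 13 lower and 2 higher, and of the red cell membrane 15 of 20 lower and 0 higher.

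The JAK-STAT targets did not move in 1 direction against ruxolitinib, with 3 of 22 higher and 4 lower and a median of 0.12. In the interaction of ruxolitinib itself 8 of the 22 were positive and 1 negative, with a median of 0.35 beside 0.45 for momelotinib. Against pacritinib 1 was higher and 7 were lower, with a median of -0.23. Against ruxolitinib CISH, PIM1 and PIM2 were lower, with differences of -0.87 ± 0.11, -0.67 ± 0.08 and -0.59 ± 0.09 (edgeR adjusted p = 1.13e-06, 1.02e-07 and 9.28e-06). With ruxolitinib these genes were at -1.76 ± 0.08, -1.69 ± 0.06 and -2.09 ± 0.06 at 4 h and at -0.33, -0.69 and -0.55 at 48 h, for CISH, PIM1 and PIM2. BCL3, IL21R and LIF differed from ruxolitinib the other way, by 1.61 ± 0.24, 1.52 ± 0.18 and 1.47 ± 0.21 (adjusted p = 1.31e-05, 2.53e-07 and 5.61e-06). With ruxolitinib BCL3 was at -2.32 at 4 h and -2.09 at 48 h, IL21R at -2.28 and -2.19, and LIF at -1.71 and -1.97, so their decrease was present at both times. For SOCS3 the difference between the compounds was 0.26 ± 0.21 (adjusted p = 0.523), for ID1 0.00 ± 0.12 (adjusted p = 0.995) and for BCL2L1 0.15 ± 0.06 (adjusted p = 0.148), none of which passed the test.

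Among ERK outputs the 2 compounds diverged most in the ETS factors and cyclin D1. The difference was 3.39 ± 0.22 in ETV4, 2.71 ± 0.13 in ETV5 and 3.69 ± 0.53 in CCND1 (edgeR adjusted p = 9.01e-13, 2.35e-16 and 5.48e-06). With ruxolitinib ETV5 was at -1.20 at 4 h and -3.19 at 48 h and ETV4 at -0.47 and -4.18, a decrease that deepened, where momelotinib gave -1.09 and -0.36 for ETV5 and -0.41 and -0.73 for ETV4. DUSP6 was at -2.73 and -3.37 with ruxolitinib, and the difference was 1.14 ± 0.24 (adjusted p = 0.00147). In the red cell genes the difference came from ruxolitinib at 48 h: HBA2 was at 0.27 at 4 h and 2.26 at 48 h with ruxolitinib, and ALAS2, the first enzyme of haem synthesis in red cells, at 0.22 and 1.90, against 0.08 and 0.42 with momelotinib. The difference was -1.60 ± 0.14 in HBA2 and -1.34 ± 0.12 in ALAS2 (adjusted p = 2.26e-10 and 3.66e-10).

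**Figure D5:**
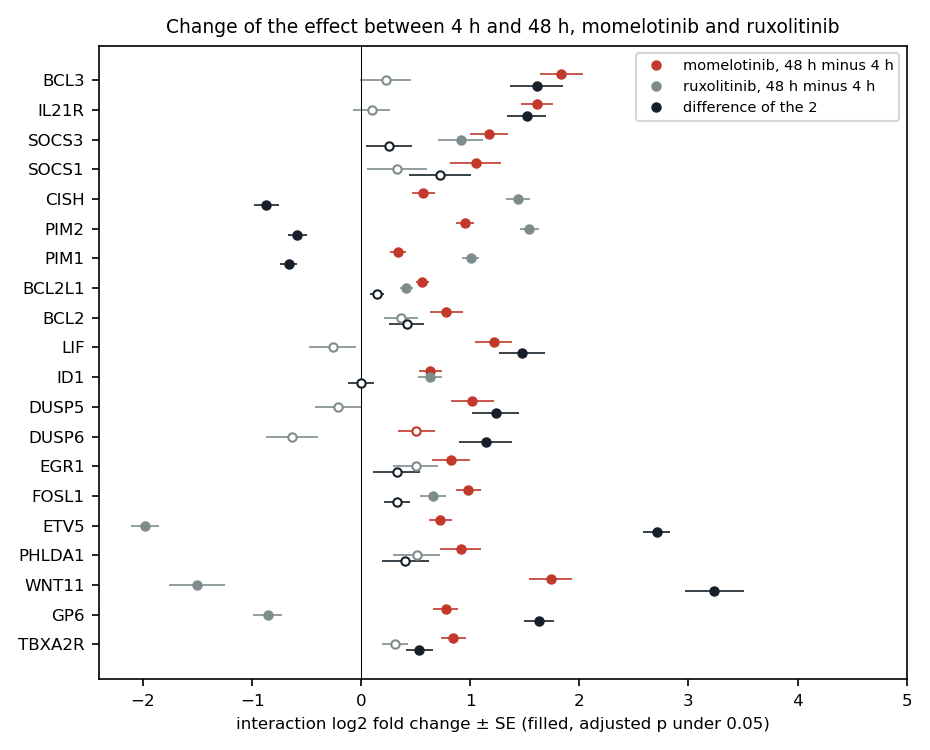
Interaction log2 fold change ± SE (x axis) of 20 genes with momelotinib (red), with ruxolitinib (grey) and as the difference of the 2 (black), filled where the adjusted p was under 0.05. The red points all lie to the right of 0. Some grey points, such as those of ETV5, WNT11, GP6, DUSP6 and LIF, lie to the left, and those of CISH, PIM2 and PIM1 lie further right than the red ones.

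Base composition moved with the interaction. When the 16068 genes with a known GC content of their transcripts were split into 5 groups of equal size by that content, the median interaction went from -0.07 in the group of lowest GC to 0.06 in that of highest. The positive and negative calls were 11 and 54 in the group of lowest GC and 103 and 11 in that of highest. Its part in the results was not tested beyond the next fit. With a trend on GC content removed for each library, an alternative added after seeing the data, 371 genes were called, 228 positive and 143 negative, and 284 were shared with the 375. The counts for JAK-STAT targets and ERK outputs were then 12 and 6.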

How the data were processed

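RNA from HEL cells was sequenced, and raw counts of reads for each gene were deposited as 1 table for the series. Per the submitters' processing notes, STAR 2.5.1a, bcl2fastq, edgeR and GRCh38 were used. Neither the counting tool nor the annotation or the use of strand is stated in what was used here, so overlapping antisense genes and near-identical copies are uncertain. All 24 libraries entered 1 fit in edgeR 4.0.16 (R 4.3.3) with a mean per group, filterByExpr, TMM scaling and the quasi-likelihood test, which left 16076 genes, and p-values were adjusted by Benjamini-Hochberg over them. CPM use TMM-scaled totals, and the SE is the log2 fold change divided by the root of F. Alternatives were DESeq2 1.42.0, other scaling and filters, 8 libraries, a replicate block and each library left out. A GC offset and protein-coding genes only were added after seeing the data.

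The members and gene lists were chosen with earlier results of these data known. Named genes were written targets, the 10 largest interactions a direction at a mean log2 CPM of 2 or more with differences that did not overlap, the 6 largest a class and the lowest p-values a list. Replicate numbers did not pair the samples. For each gene the deviation of replicate 1 from the mean log2 CPM of its group was taken. Between the 4 groups of DMSO and momelotinib these deviations had correlations of -0.0377 to 0.0193. In simulated counts the interaction was recovered in 34.3% of 67 genes changed 1.25-fold, 83.6% of 67 changed 1.5-fold and 95.5% of 66 changed 2-fold, and 11 of 153 calls were false.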

Additional observations from a re-analysis of the deposited data

Results flagged for a closer look

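The effect of momelotinib differed between 4 h and 48 h in 375 genes by the test of the interaction, and this difference itself differed from that of ruxolitinib in 1748 genes and from that of pacritinib in 1607. In 10 genes the effect was called at both times with opposite signs. The interaction was 1.21 in LIF, 0.72 in RGS19, 0.70 in NOTCH1, 0.67 in SEMA7A and 0.66 in PLK3, and 0.49 in TOR4A, 0.48 in FAM129B and 0.47 in NLRC3, all lower at 4 h and higher at 48 h. It was -0.50 in CSF2RB and -0.34 in GLO1, higher at 4 h and lower at 48 h. The interaction of GLO1 was not called without DMSO at 4 h replicate 2 (edgeR adjusted p = 0.0517). The effects at 48 h of NOTCH1, SEMA7A, RGS19, PLK3, TOR4A, FAM129B and GLO1 were not called when any of the 4 libraries of that time was left out, and that of NLRC3 not without DMSO replicate 1 or momelotinib replicate 1 (adjusted p = 0.122 and 0.163). Those of LIF and CSF2RB are given with their values above. At 4 h the calls of NLRC3 and GLO1 were lost when any of the 4 libraries of that time was left out (adjusted p = 0.0662 to 0.331 and 0.0915 to 0.414). Those of PLK3 and TOR4A were lost without DMSO replicate 2 (adjusted p = 0.163 and 0.234) or momelotinib replicate 2 (adjusted p = 0.18 and 0.163).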

How the results depend on the processing

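None of the results reversed under the alternatives run. The interaction was called in 524 genes by DESeq2, 374 with other size factors, 437 without the filter on low counts, 424 with a stricter filter, 256 in the 8 libraries alone, 431 with a replicate block, 371 with the GC offset and 410 in protein-coding genes. The effect at 48 h was called in 516 genes by DESeq2 and 195 in the 8 libraries alone. Genes lower at both times numbered 58 in DESeq2 and 69 with the GC offset. A deepened decrease was called in 1 gene by DESeq2, without the filter, with the stricter filter, in the 8 libraries, with the replicate block, with the GC offset and in protein-coding genes. Rebounds numbered 16 in DESeq2, 13 with the stricter filter, 5 in the 8 libraries and 13 with the replicate block, and lost increases 35 in the 8 libraries. With 1 library left out, the lone library of a group is assumed to vary like the other groups. The counts then ran from 131 to 480 for the interaction, 453 to 759 at 4 h, 25 to 77 at 48 h, 494 to 682 for DMSO over time and 1160 to 1831 for momelotinib over time. They ran from 8 to 40 for genes lower at both times, 298 to 597 for genes lower at 4 h and not at 48 h, 91 to 202 for lost decreases, 12 to 89 for lost increases, 0 to 10 for rebounds and 0 to 0 for deepened decreases. The JAK-STAT count ran from 9 to 12, the ERK count from 4 to 8 and the sterol count at 48 h from 4 to 12. Against ruxolitinib the range was 1094 to 1769 and against pacritinib 764 to 1448. The numbers do not pair the libraries, and the replicate block raised the calls of the interaction from 375 to 431, 375 of them shared. The cause of these shifts was not tested. With 2 libraries a group, changes under 1.5-fold were often missed in simulated counts, so a missing call at 48 h is no sign of a return to the DMSO level.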

Other observations

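Some genes of the p53 pathway were called in the interaction. Of 22 tested targets, 4 (PLK3, BTG2, CDKN1A and AEN) were positive and 1 (CCNG1) negative, beside 1.57% and 0.759% of all tested genes. The median interaction of the list was 0.08. BTG2, which restrains proliferation, stood at 67.3 and 69.5 CPM with DMSO and 57.3 and 54.1 CPM with momelotinib at 4 h, and at 40.4 and 43.6 against 45.5 and 47.3 CPM at 48 h, with an interaction of 0.44 ± 0.08 (edgeR adjusted p = 0.00159). The calls of CDKN1A and AEN were lost when any of 6 and any of 7 of the 8 libraries was left out (adjusted p = 0.0612 to 0.345 and 0.0961 to 0.16), and that of CCNG1 without DMSO at 48 h replicate 2 (adjusted p = 0.0545).

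Of 19 tested chaperones of the endoplasmic reticulum, 4 were lower at 4 h and 2 (HSPA5 and SDF2L1) were positive in the interaction, beside 3.79% and 1.57% of all tested genes. HSPA5, the main chaperone of that compartment, stood at 462 and 467 CPM against 382 and 373 CPM at 4 h and at 553 and 533 against 518 and 555 CPM at 48 h, where the libraries overlapped. Its interaction of 0.28 ± 0.06 (edgeR adjusted p = 0.00631) was not called without DMSO at 48 h replicate 2 or momelotinib at 48 h replicate 2 (adjusted p = 0.0707 and 0.0937). The interaction of SDF2L1 was 0.39 ± 0.11 (adjusted p = 0.0418) and lost its call in 6 of the 8 fits that each drop 1 library (adjusted p = 0.0679 to 0.285), and also in the 8 libraries alone and with the GC offset, and its call at 4 h was lost without DMSO replicate 2 or momelotinib replicate 2 (adjusted p = 0.298 and 0.266). The 2 fits that kept the interaction call left out DMSO at 4 h replicate 1 and momelotinib at 4 h replicate 1. SLC2A3, a glucose transporter, stood at 182 and 192 CPM against 112 and 113 CPM at 4 h and at 148 and 153 against 133 and 136 CPM at 48 h, with an interaction of 0.57 ± 0.08 (adjusted p = 1.41e-05).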
